A study of Mus musculus with 9 samples.

Results

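The cytosolic ribosomal protein genes were examined in the polyA RNA of 9 adult C57BL/6J mouse hearts. Members were chosen by a rule on symbols, with earlier results of these data known. The rule took every gene named Rpl or Rps followed by a number, with the paralog endings a, x and l. It also took Rplp0, Rplp1, Rplp2 and Rpsa. The rule found 84 members among the 15779 genes listed, of which 49 are named for proteins of the large and 35 for proteins of the small ribosomal subunit, and all 84 stood in each of the 3 deposited comparison tables. The annotation lists 80 as protein-coding and 4 (Rpl6l, Rps3a2, Rps3a3 and Rps4l) as processed pseudogenes. The hearts form 3 groups of 3. Wild-type mice (Mybpc3wt) received saline, mice homozygous for a premature stop in the cardiac myosin-binding protein C gene (genotype Mybpc3R946X/R946X) received saline, and mice of that same mutant genotype received the treatment labelled high-dose-exABE8e. The series text describes adenine base editors delivered by the adeno-associated virus AAV9 for expression in cardiomyocytes. The labels used here give no age, sex or dose in figures, and both comparison groups are labelled with saline and not with a virus. Nothing says what hearts with the same replicate number share, so hearts were not paired in the main fits. Each limma p-value sets a group difference against the spread within groups of the 6 hearts compared, moderated over all genes.

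Ribosomal proteins are made in nearly equal numbers, because each ribosome holds a single copy of most of them, and their mRNAs are among the most abundant of any cell. Most of these mRNAs begin with a cytosine followed by a run of pyrimidines, the terminal oligopyrimidine (TOP) motif, through which the kinase mTOR and the RNA-binding protein Larp1 control their translation and stability. Striated muscle has an exception to the uniform set: Rpl3, a large-subunit protein that reaches toward the peptidyl transferase centre, is replaced in part by its paralog Rpl3l, which is expressed in heart and skeletal muscle.

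The start sites of 3 members are shown: Rps6 and Rpl38 as examples of the motif, and Rpl3l because the results turn on it. Each sequence runs 5′ to 3′ with 15 bases before and 15 bases from the annotated RefSeq start (GRCm38.p6), and capitals mark the run of C and T that begins at the first transcribed base. Rps6 lies on the minus strand at chr4:86857353-86857382, Rpl38 on the plus strand at chr11:114668565-114668594 and Rpl3l on the plus strand at chr17:24727811-24727840.
Rps6: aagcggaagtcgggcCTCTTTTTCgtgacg
Rpl38: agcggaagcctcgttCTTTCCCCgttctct
Rpl3l: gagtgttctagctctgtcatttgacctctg
The run was 9 bases long in Rps6, 8 in Rpl38 and 0 in Rpl3l. Of the 84 members, 60 were found in the RefSeq table of gene starts, and 13 of those 60 (21.7%) had a C at the annotated first base followed by 4 pyrimidines, against 813 of all 27025 genes in the table (3.01%). Rps6 and Rpl38 are among the 13, and most of the 60 lacked such a run at the annotated base, as Rpl3l did. An annotated start can lie some bases from the one used in the heart, so a missing run says only that these letters are not at the annotated base. Rpl3 was not among the 60.

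The labels were checked first on Mybpc3 itself. It was at 1510, 1795 and 2039 in wild type, at 133, 142 and 186 in saline mutant hearts, and at 1024, 1374 and 1332 in treated mutants, so the groups were ordered as labelled. These numbers, like all levels below, are deposited whole-number values that sum to between 999152 and 999382 in each library. They behave as a rounded per-million scale, the read depth is unknown, and no source used here says whether they were divided by transcript length, so levels are not ranked between genes of different length. All 11 cardiomyocyte markers were present in every heart with summed values of 60305 to 72078, and markers of lymphocytes, adipocytes, neutrophils and skeletal muscle summed to 5 or less. Those low sums rest on the markers listed with values: 6 of 10 for lymphocytes, 1 of 6 for adipocytes, 2 of 4 for neutrophils and 4 of 7 for skeletal muscle. Xist, the transcript of the inactive X chromosome, was at 119 in wild-type replicate 1, 351 in saline mutant replicate 3 and 39 in treated replicate 1, and at 0 in the other 6 libraries. Treated replicate 1 also held the Y-linked Ddx3y at 38. Within every group the library with Xist was the one with the most ribosomal protein mRNA, and results are given below with and without those 3 libraries.

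Rpl3l was lower and Rpl3 higher in the saline mutant hearts than in wild type, and no other member passed the test in that comparison. Rpl3l (chromosome 17, 24727820 to 24736143, plus strand of mm10) was at 262, 218 and 257 in wild type, at 95, 81 and 50 in saline mutant hearts, and at 143, 157 and 150 in treated mutants. No value of one group reached the range of another: every saline mutant lay below every treated heart, and every treated heart below every wild-type heart. Rpl3 (chromosome 15, 80077791 to 80091868, minus strand) was at 270, 257 and 208 in wild type, at 345, 415 and 527 in saline mutant hearts, and at 298, 255 and 336 in treated mutants. Here all 3 saline mutants exceeded all other hearts, while the treated range overlapped that of wild type. The mean of Rpl3l was 246 ± 24.1 in wild type, 75.3 ± 23.0 in saline mutant hearts, and 150 ± 7.0 in treated mutants, and that of Rpl3 was 245 ± 32.7, 429 ± 91.8 and 296 ± 40.5 (SD, n = 3 each).

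**Figure D1:**
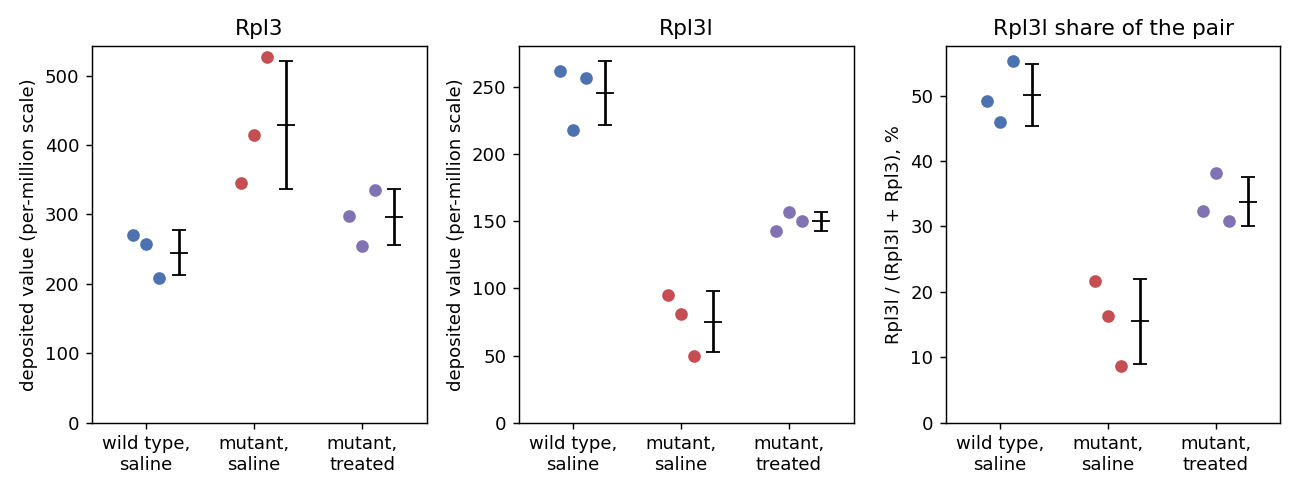
Deposited values of Rpl3 (left) and Rpl3l (middle) and the Rpl3l share of their sum in percent (right), with 1 point per heart and the mean ± SD of 3 hearts beside each group. The Rpl3l share fell between 45.9% and 55.3% in wild type, 8.67% and 21.6% in saline mutant hearts, and 30.9% and 38.1% in treated mutants.

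In saline mutants relative to wild type the log2 fold change was -1.74 for Rpl3l (SE 0.213, 95% interval -2.22 to -1.25, adjusted p = 0.00179, limma with Benjamini-Hochberg adjustment over all genes tested) and 0.79 for Rpl3 (SE 0.166, interval 0.41 to 1.17, adjusted p = 0.0222). These were 2 of 84 members, 1 in each direction, in a comparison in which 7.7% of all 13632 genes tested passed, 4.56% as higher and 3.14% as lower. The Rpl3l result passed in all 19 alternative analyses. The Rpl3 result passed in 14 of 19 and was lost without wild-type replicate 1 (adjusted p = 0.0571) or 3 (0.0786), without saline mutant replicate 2 (0.0807) or 3 (0.0557), and with limma's standard trended variance step in place of the one used here (0.0857).

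In treated relative to saline mutants the changes were 1.03 for Rpl3l (SE 0.210, interval 0.55 to 1.51) and -0.52 for Rpl3 (SE 0.169, interval -0.91 to -0.13), with unadjusted p-values of 0.00099 and 0.0143 in limma. Neither passed after adjustment over 13636 genes (adjusted p = 0.203 and 0.460), in a comparison in which 0.0147% of genes passed, 0.00733% in each direction (1 gene each, or 8 and 2 with median-of-ratios scaling). In treated mutants relative to saline wild type Rpl3l was lower by a log2 change of -0.70 (SE 0.105, interval -0.95 to -0.46, adjusted p = 0.0326 in limma) and Rpl3 differed by 0.27 (SE 0.143, interval -0.06 to 0.61, adjusted p = 0.496), where 0.989% of 13554 genes passed, 0.863% as higher and 0.125% as lower (117 and 17 genes, or 121 and 43 with upper-quartile scaling). That Rpl3l call held in 9 of 19 alternatives: it was lost when any 1 of the 6 hearts was left out (adjusted p = 0.0787 to 0.152), without the libraries with Xist (0.208), with all 9 libraries in one fit (0.138), with the replicate number as a block (0.0711) and with limma's standard variance step (0.0644). Each pair of these 3 comparisons shares the hearts of 1 group.

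The ratio of the pair does not depend on how a library was scaled, and the transcripts are of similar length (1351 bases for Rpl3, 1375 for Rpl3l). Rpl3l made up 49.2%, 45.9% and 55.3% of the pair in wild-type hearts, 21.6%, 16.3% and 8.67% in saline mutant hearts, and 32.4%, 38.1% and 30.9% in treated mutants. The wild-type heart thus held about equal values of the pair, and the treated hearts lay between the other groups without overlap. The mean log2 ratio of Rpl3l to Rpl3 was 0.01 ± 0.274 in wild type, -2.52 ± 0.777 in saline mutant hearts, and -0.97 ± 0.242 with treatment (SD, n = 3 each). It differed by -2.53 between saline mutants and wild type, by 1.55 between treated and saline mutants and by -0.98 between treated mutants and wild type. Each of these 3 comparisons gave a two-sided exact permutation p of 0.1, the smallest that 3 against 3 hearts allow (0.1 after adjustment over the 3). The sum of the pair was 491 ± 36.1, 504 ± 68.9 and 446 ± 37.3 in the same order (SD, n = 3), the groups overlapped, and the exact permutation p was 0.8, 0.3 and 0.3 for saline mutant against wild type, treated against saline mutant and treated against wild type.

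The fall in Rpl3l and the rise in Rpl3 were also present relative to the rest of the family. Set against the median of 75 other members in the same library, Rpl3 stood at a log2 difference of 0.00 ± 0.116 in wild type, 0.67 ± 0.104 in saline mutant hearts, and 0.38 ± 0.130 in treated mutants (SD, n = 3, each relative to the wild-type mean). Rpl3l stood at 0.00 ± 0.205, -1.86 ± 0.675 and -0.60 ± 0.222 on the same scale. No group overlapped another for either gene, so against the other members Rpl3 too was intermediate in the treated hearts, with an exact permutation p of 0.1 for each pair of groups, again the smallest possible. The longest open reading frames of the annotated transcripts are 1212 bases for Rpl3 and 1224 for Rpl3l, 73.3% of aligned bases are identical and the longest shared run is 22 bases. Neither gene's exons overlap another annotated gene.

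The 250 bases upstream of the annotated Rpl3l start are printed because Rpl3l was the member with the largest fold change between saline mutants and wild type. They lie on the plus strand at chr17:24727576-24727825 (GRCm38.p6, RefSeq), and capitals mark the matches to motifs of cardiac transcription factors, searched on both strands and chosen after the values were seen.
Rpl3l upstream: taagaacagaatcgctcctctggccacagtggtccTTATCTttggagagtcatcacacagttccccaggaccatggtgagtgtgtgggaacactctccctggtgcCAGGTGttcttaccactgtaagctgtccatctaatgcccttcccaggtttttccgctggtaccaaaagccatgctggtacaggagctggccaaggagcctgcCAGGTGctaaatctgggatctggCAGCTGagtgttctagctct
The window held 3 E-boxes (CANNTG), which begin 145, 43 and 20 bases before the start, and 1 GATA match (AGATAA, here on the minus strand) at 215 bases. An E-box of this form was present in 66.2% and the GATA match in 9.99% of all 32851 upstream windows of the same length. There was no match to the M-CAT element CATTCC (12.6% of windows), TATAAA (12.4%), the MEF2 box (0.508%) or the CArG box (1.47%). None of these motifs overlapped another in the window, and a match describes the letters only.

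The other members moved together from heart to heart, and the hearts within a group differed as much as the groups did. The following values cover the 75 members with a mean of at least 30 over the 9 libraries, without Rpl3 and Rpl3l, 44 of the large and 31 of the small subunit. Their median, as a log2 difference from each gene's wild-type mean, was 0.23, -0.05 and -0.16 in the 3 wild-type hearts, -0.09, 0.14 and 0.32 in the saline mutants and 0.03, -0.28 and -0.06 in the treated mutants. All 75 were above their wild-type mean in wild-type replicate 1 and 0 of 75 in wild-type replicate 3, with 73 in saline mutant replicate 3 and 1 in treated replicate 2. The group means of this median were 0.00 ± 0.201, 0.12 ± 0.209 and -0.10 ± 0.156 (SD, n = 3), with ranges inside the groups of 0.390, 0.416 and 0.302, so the groups overlapped for every pair. Large- and small-subunit genes gave nearly the same figures: the saline mutant mean was 0.13 ± 0.199 for the large and 0.12 ± 0.220 for the small subunit, and the treated mean was -0.09 ± 0.142 and -0.11 ± 0.172.

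**Figure D2:**
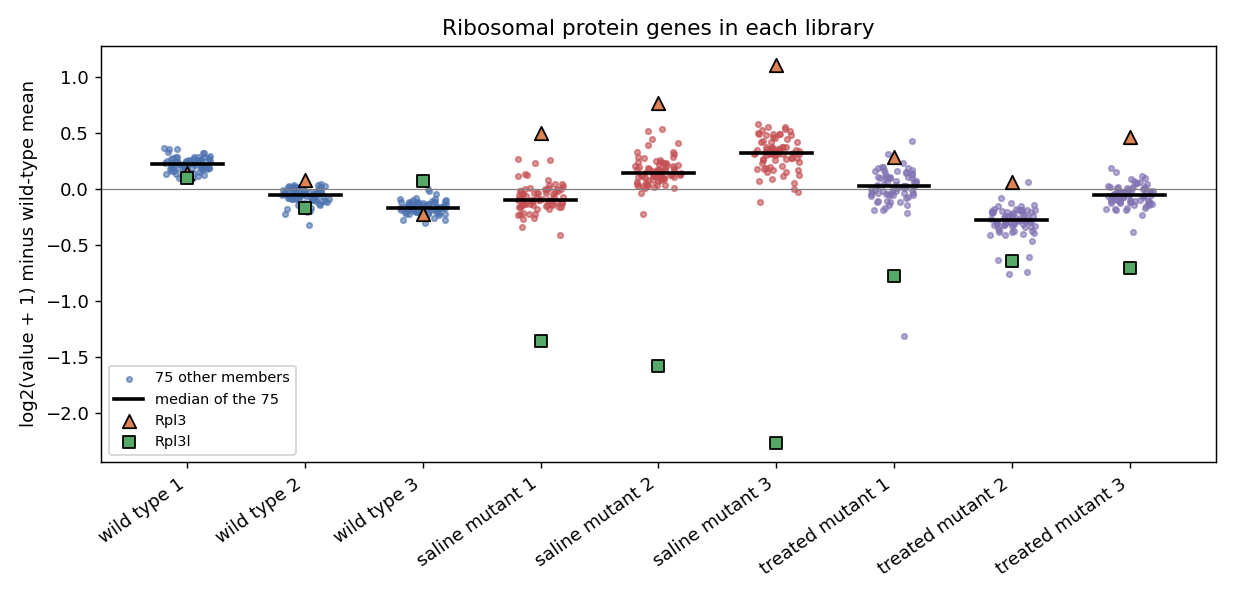
Difference of each member from its wild-type mean on the log2(value + 1) scale (vertical axis) in each of the 9 libraries (horizontal axis), with 1 small point for each of 75 members, a bar for their median, a triangle for Rpl3 and a square for Rpl3l. The 75 shift as a block from library to library, from a median of -0.28 in treated replicate 2 to 0.32 in saline mutant replicate 3, and Rpl3l lies below all other points in the 3 saline mutants.

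As a share of all deposited values the 84 members made up 1.79%, 1.51% and 1.39% in wild type, 1.44%, 1.69% and 1.93% in saline mutant hearts, and 1.56%, 1.28% and 1.496% in treated mutants. The means were 1.56 ± 0.204%, 1.69 ± 0.244% and 1.44 ± 0.146% (SD, n = 3). Transcripts of the mitochondrial genome took between 17.0% and 24.1% of the values in a library. As a share of the remaining values the member means were 2.01 ± 0.309%, 2.08 ± 0.252% and 1.79 ± 0.214% (SD, n = 3). On that scale wild-type replicate 1 (2.36%) lay above saline mutant replicate 3 (2.33%). Across the 9 libraries, each of the 77 members with a mean of at least 30 was correlated with the median of the others: the median r was 0.939, and 64 of the 77 lay above 0.8. This is a description of 9 libraries that share scaling and depth differences. Rpl3l alone had a negative correlation (-0.457), and the next lowest were Rps2 (0.546), Rps27a (0.614) and Rpl3 (0.683).

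Between saline mutants and wild type the median log2 fold change of the 84 members was 0.13, against 0.07 for all genes, with 77 members above 0 and 7 below, where 59.1% of all genes were above 0. That median moved with single hearts: it ran from 0.02 to 0.24 when 1 heart was left out, with 52 above and 32 below 0 without saline mutant replicate 3 (0.02) and 61 and 23 without wild-type replicate 3 (0.04), and it was 0.06 with 64 above and 20 below 0 under median-of-ratios scaling, where the median of all genes was 0.00. The ranges of the 2 groups were apart for 2 of 84 members (2.38%), Rpl3 and Rpl3l, against 21.6% of all genes tested, 12.8% higher and 8.78% lower. Among the remaining members with a mean of at least 30, fold changes ran from -0.23 to 0.45 on the log2 scale with a median SE of 0.146, and none passed the test in limma. The median half-width of their 95% intervals was 0.33. Rpl39, Rpl38, Rps28 and Rpl35 had the next highest values after Rpl3. Rpl39, which lines the exit tunnel of the ribosome, was at 67, 45 and 47 in wild-type and 63, 76 and 77 in saline mutant hearts, a log2 change of 0.45 (SE 0.164, adjusted p = 0.160). Wild-type replicate 1 lay inside the mutant range. The values were 0.39 for Rpl38 (SE 0.138, adjusted p = 0.147), 0.33 for Rps28 (adjusted p = 0.264) and 0.30 for Rpl35 (adjusted p = 0.324).

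The lowest values after Rpl3l belonged to Rps2, a small-subunit protein at the mRNA entry channel. Rps2 was at 1225, 1055 and 965 in wild type, at 850, 921 and 994 in saline mutant hearts, and at 945, 870 and 955 in treated mutants. Unlike most members it was not highest in saline mutants, and its log2 change was -0.23 against wild type (SE 0.122, adjusted p = 0.357 in limma). Rpl36 (-0.02), Rps27 (-0.01) and Rps13 (-0.01) followed and were near 0.

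Between treated and saline mutants 81 of 83 members tested had a negative fold change and the median was -0.23, against -0.02 for all genes, of which 40.6% were positive. No member passed in limma (0 of 83, against 0.0147% of all genes). At an unadjusted p under 0.05 in limma were 14 of the 83 members and 1130 of all 13636 genes tested. The median stayed below 0 in all alternatives, at -0.19 without the libraries with Xist and between -0.34 and -0.13 when 1 heart was left out. The group ranges were apart for 10 of 83 members (12%), against 9.82% of all genes. By direction, 1 member was higher (1.2%) and 9 were lower (10.8%), against 5.48% and 4.34% of all genes. The members moved together from heart to heart, so these 9 are not independent. Rpl3l was higher in treated hearts, and those lower included Rpl3, Rpl35a, Rpl39, Rpl41, Rps27l, Rps28 and Rps9. Rpl39 was at 56, 39 and 55 in treated mutants (-0.53 from saline mutants, adjusted p = 0.439), and these values overlapped those of wild type. The lowest value, -0.80 (SE 0.315, adjusted p = 0.561), was that of Rps27a, and Rps12 stood at -0.53 (SE 0.227, adjusted p = 0.592). At the other end after Rpl3l were Rps2 (0.00), Rpl7a (-0.05), Rpl30 (-0.08) and Rplp2 (-0.08).

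**Figure D3:**
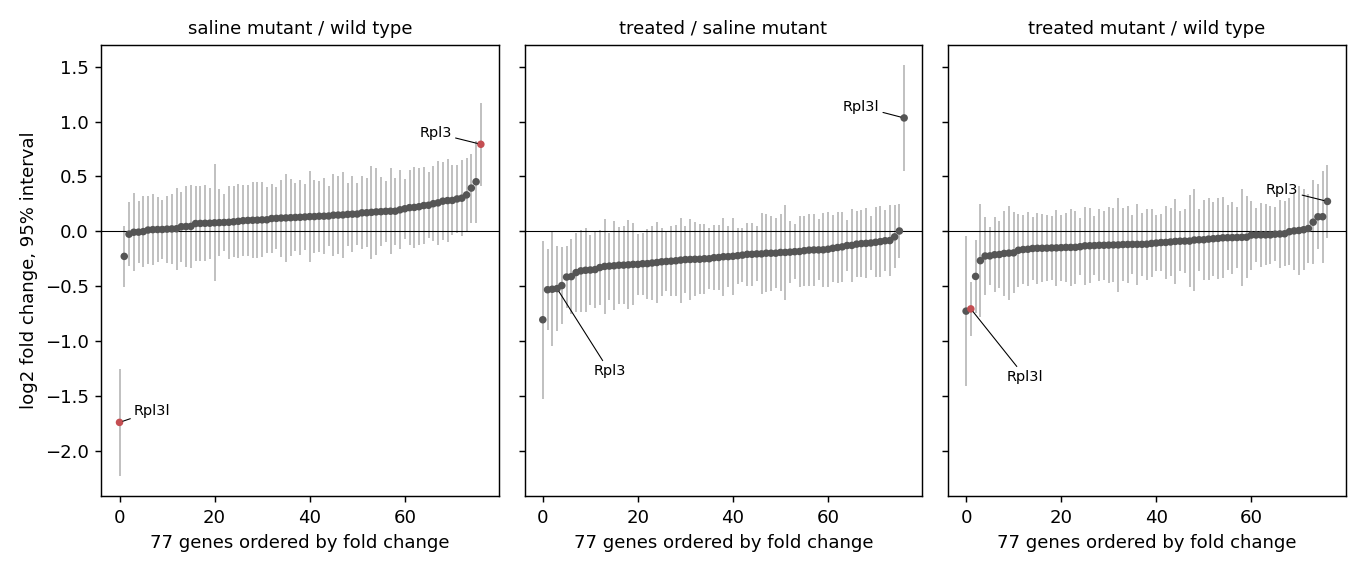
Log2 fold changes (vertical axis) of the 77 members with a mean of at least 30, ordered from lowest to highest within each of the 3 comparisons, with 95% intervals as grey lines and members at an adjusted p under 0.05 in red. Rpl3l is the lowest point of the first panel at -1.74 and the highest of the second at 1.03, while most other intervals in all 3 panels include 0.

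Rps27a encodes a small-subunit protein fused to ubiquitin, which is cut apart after translation. It ranged widely between hearts: 164, 139 and 110 in wild type, 102, 147 and 197 in saline mutant hearts, and 54, 81 and 125 in treated mutants. The groups overlapped throughout, and 20.2% of its exonic bases also lie in the exons of another annotated gene. Fau, a small-subunit protein fused to a ubiquitin-like protein, was at 126, 102 and 95 in wild type, 101, 113 and 122 in saline mutant hearts, and 98, 91 and 103 in treated mutants, and did not pass the test in any comparison.

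Between treated mutants and wild type the median of the 83 members tested was -0.11, against 0.01 for all genes, with 9 above and 74 below 0. Rpl3l alone passed, and the ranges of the groups were apart for 3 of 83 members (3.61%), Rpl3l and Rps2 among them, all lower in treated hearts, against 14.6% of all genes, 9.13% higher and 5.43% lower. This median was -0.06 without the libraries with Xist, -0.05 with the length trend removed and 0.00 without wild-type replicate 1. It was -0.02 without treated replicate 2. Among the lowest members were Rps27a (-0.72, SE 0.291, adjusted p = 0.366), Rpl3l, Rps12 (-0.27) and Rpl21 (-0.22), and the highest were Rpl3, Rpl38 (0.13), Rpl7l1 (0.13), Rps28 (0.08) and Rps18 (0.03).

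The members with well-known roles outside or at the edge of the ribosome followed the other genes of the family. Rplp0, the base of the stalk that recruits elongation factors, was at 810, 747 and 678 in wild type, 720, 790 and 924 in saline mutant hearts, and 837, 639 and 734 in treated mutants. Its partners Rplp1 and Rplp2 differed between saline mutants and wild type by 0.25 (SE 0.151) and 0.02 (SE 0.134) on the log2 scale. Rpsa, also known as the laminin receptor, was at 607, 542 and 456, then 484, 570 and 636, then 546, 430 and 519 in the same order of groups. Rps6, the substrate of the mTOR-dependent S6 kinases, was at 364, 327 and 290, then 298, 344 and 413, then 314, 261 and 305. For Rplp0, Rpsa and Rps6 the wild-type and saline mutant ranges overlapped, and the highest value of the saline mutants came from replicate 3. Rpl5 and Rpl11, which together bind the p53 ligase Mdm2 when ribosome assembly is disturbed, differed by 0.11 (SE 0.131) and 0.00 (SE 0.143) between saline mutants and wild type. Rps19, mutated in Diamond-Blackfan anaemia, differed by 0.12 (SE 0.154). None of these 8 genes passed the test in any of the 3 comparisons, and their 95% intervals for the first allow changes of up to 0.60 on the log2 scale.

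Other paralog pairs did not show a shift of the size seen in Rpl3l and Rpl3. The log2 ratio of Rpl22l1 to Rpl22 differed by -0.06 between saline mutants and wild type, that of Rpl7l1 to Rpl7 by 0.11, that of Rps4l to Rps4x by -0.14 and that of Rps27l, a p53-induced paralog, to Rps27 by 0.29. Between treated and saline mutants the same ratios differed by 0.01, 0.13, 0.31 and -0.30, and no test was made of these ratios. For Rps27l to Rps27 the wild-type ratios were -0.51, -0.14 and -0.14 and the saline mutant ratios -0.18, 0.02 and 0.24, and the groups overlapped. Rps4l, annotated as a transcribed processed pseudogene, was between 12 and 22 in every library and Rpl22l1 between 9 and 14, so a rounding step is a visible part of their ratios. Rpl10l, Rpl39l and Rpl36al are not analysed here.

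A mean below 30 was found for Rps10, Rps3a3, Rps3a2, Rpl13a, Rpl22l1, Rpl6l and Rps4l. Of these, Rps10 was listed at 0 or 1 and Rpl13a at 4 to 7 in every library, although each ribosome holds both proteins. More than 50% of the exonic bases of 6 members also lie in exons of other annotated genes, and in Rps10 (53.6%) and Rpl13a (59.3%) those genes are on the same strand. The tables also list 82 other rows named as ribosomal protein pseudogenes, which sum to between 383 and 684 per library. How reads were divided between such copies is not given in the sources used here, so the levels of these members are uncertain. All 84 members reached a mean of 1 in the first comparison, and 83 in the others, where Rps10 fell short.

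Because most members have short mRNAs (median 882 bases, from 345 to 5179), the shifts were set beside those of other genes of the same length with a mean of at least 30. Other genes of up to 600 bases (n = 55) had a median log2 difference from wild type of 0.18, -0.11 and -0.06 in wild type, -0.14, -0.03 and -0.16 in saline mutant hearts, and -0.04, -0.36 and -0.13 with treatment. Members of that length (n = 18) stood at 0.25, -0.09 and -0.16, then -0.01, 0.23 and 0.33, then 0.08, -0.28 and -0.03. In wild-type replicate 1 and treated replicate 2, short genes of both kinds moved the same way. In saline mutant replicates 2 and 3 the members were high and the other short genes were not. Over 600 and up to 1000 bases, other genes (n = 211) were at 0.04 and 0.03 in these 2 hearts, and members (n = 30) at 0.14 and 0.32. Among the 75 members themselves the Spearman rho of the shift with length was -0.37, 0.34 and -0.04 in wild type, -0.23, -0.24 and 0.11 in saline mutant hearts, and -0.10, 0.04 and 0.02 with treatment, so its size and sign differed between libraries. Between 2000 and 4000 bases the members (n = 5) stood at 0.19 in saline mutant replicate 2, 0.32 in saline mutant replicate 3 and -0.19 in treated replicate 2, and other genes of that length (n = 1855) at 0.04, 0.14 and 0.08.

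**Figure D4:**
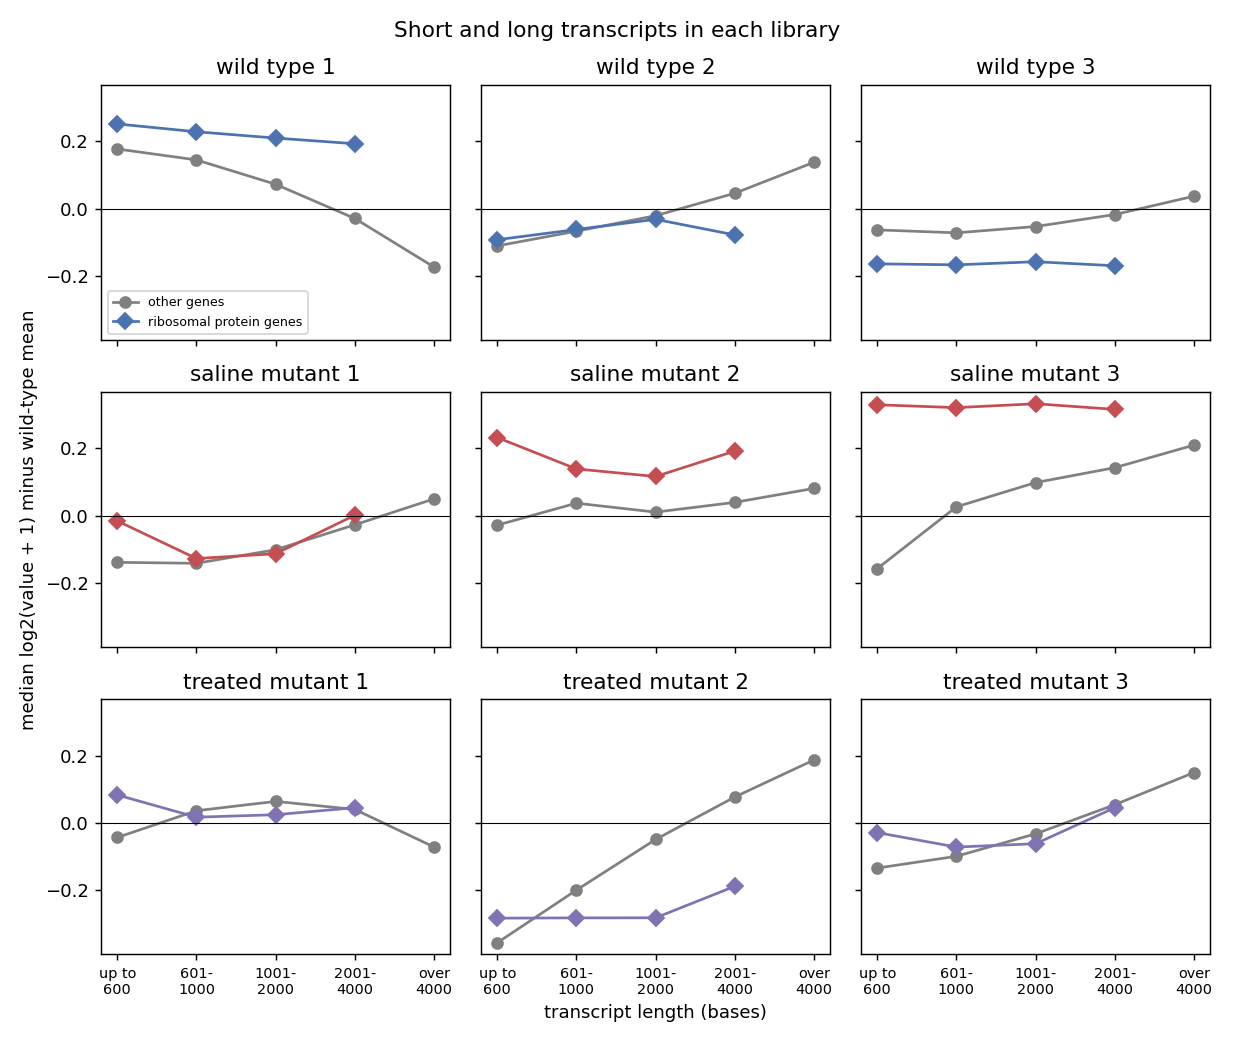
Median difference from the wild-type mean on the log2 scale (vertical axis) by transcript length in bases (horizontal axis), in 1 panel per library, for ribosomal protein genes (coloured diamonds) and other genes (grey circles); classes with fewer than 5 genes are not drawn. At the short end both lines lie on the same side of 0 in wild-type replicate 1 and treated replicate 2, and on opposite sides in saline mutant replicate 3, at 0.33 for members of up to 600 bases and -0.16 for other genes.

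The relation of a gene's shift to its length was strongest in wild-type replicate 1, with a Spearman rho of -0.70 across 4854 other genes, and it was 0.56 in wild-type replicate 2. These are relations across genes of 1 library, which are not independent replicates, and are given without a test. Removing the length trend of each library left the median of the members at 0.13 between saline mutants and wild type, moved it to -0.18 between treated and saline mutants, and left the Rpl3l to Rpl3 ratio differences at -2.53, 1.55 and -0.98. That ratio could hardly change, because the transcripts of Rpl3l and Rpl3 have nearly the same length and receive nearly the same correction. With the trend removed, 5 members passed as higher in saline mutants than wild type: Rpl3, Rpl38, Rpl39, Rpl41 and Rps28, in a fit in which 730 of all 13632 genes passed as higher, a similar share. The part of length in the remaining shifts was not tested further.

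Genes that share the TOP motif or act with the ribosome were taken from lists of textbook members. Of 18 other TOP mRNAs, 2 passed as higher in saline mutants than wild type, where 4.56% of all genes did, and the median was 0.13, against 0.07 for all genes. Eef1a1, the elongation factor that delivers aminoacyl-tRNA, was at 1398, 1468 and 1218 in wild type, 2066, 2417 and 3286 in saline mutant hearts, and 1371, 1310 and 1882 in treated mutants. It rose by 0.90 in saline mutants (SE 0.174, adjusted p = 0.0151 in limma), with every saline mutant above every other heart, and its change from saline to treated mutants was -0.76 (adjusted p = 0.359). The other was Eif3h, a subunit of an initiation factor (0.56, adjusted p = 0.0201). Between treated and saline mutants all 18 had negative fold changes, with a median of -0.21, and 0 of 18 passed. Eef1a2, the muscle and neuron paralog of Eef1a1, differed by -0.19 between saline mutants and wild type and did not pass (adjusted p = 0.400).

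Of 59 ribosome biogenesis genes tested, 55 had positive fold changes in saline mutants relative to wild type, with a median of 0.24, against 59.1% of all genes and a median of 0.07. Of the 59, 2 passed, both as higher, a share near that of all genes (4.56%). Rrp12, which takes part in the export of ribosome precursors, was at 17, 26 and 23 in wild type, 72, 63 and 70 in saline mutant hearts, and 44, 70 and 50 in treated mutants. It rose by 1.61 in saline mutants (adjusted p = 0.000709) and by 1.27 in treated mutants relative to wild type (adjusted p = 0.0483, limma). Grwd1, a chaperone of newly made Rpl3, was at 11 in all 3 wild-type hearts, at 17, 15 and 16 in saline mutant hearts, and at 17, 17 and 15 in treated mutants. Its rise of 0.50 in saline mutants passed (adjusted p = 0.0429), and its value of 0.53 in treated mutants relative to wild type did not (adjusted p = 0.0936). Among 21 genes that control TOP mRNAs or ribosome production, Myc alone passed, a share near that of all genes (4.56% as higher). Its values were low, at 4, 5 and 4 in wild type and 8, 10 and 9 in saline mutants. Treated mutants were at 9, 7 and 8. Myc rose by 0.91 in saline mutants (adjusted p = 0.0109 in limma). Its value of 0.75 in treated mutants relative to wild type did not pass (adjusted p = 0.085). Of 15 RNA polymerase I genes 0 passed in any comparison in limma, and between treated and saline mutants no gene of the TOP, elongation, initiation, biogenesis, polymerase or regulator lists passed.

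Of the 77 genes of the mitochondrial ribosome, 0 passed as higher and 2 (Mrpl28 and Mrpl39) as lower in saline mutants, with a median of -0.05. Both shares are close to or below those of all genes, 4.56% as higher and 3.14% as lower. The 78 nuclear genes of the respiratory chain had a median of -0.19, with 0 higher and 2 lower. The cytosolic and the mitochondrial ribosome thus had medians of opposite sign in that comparison, while the difference between them was not tested.

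**Figure D5:**
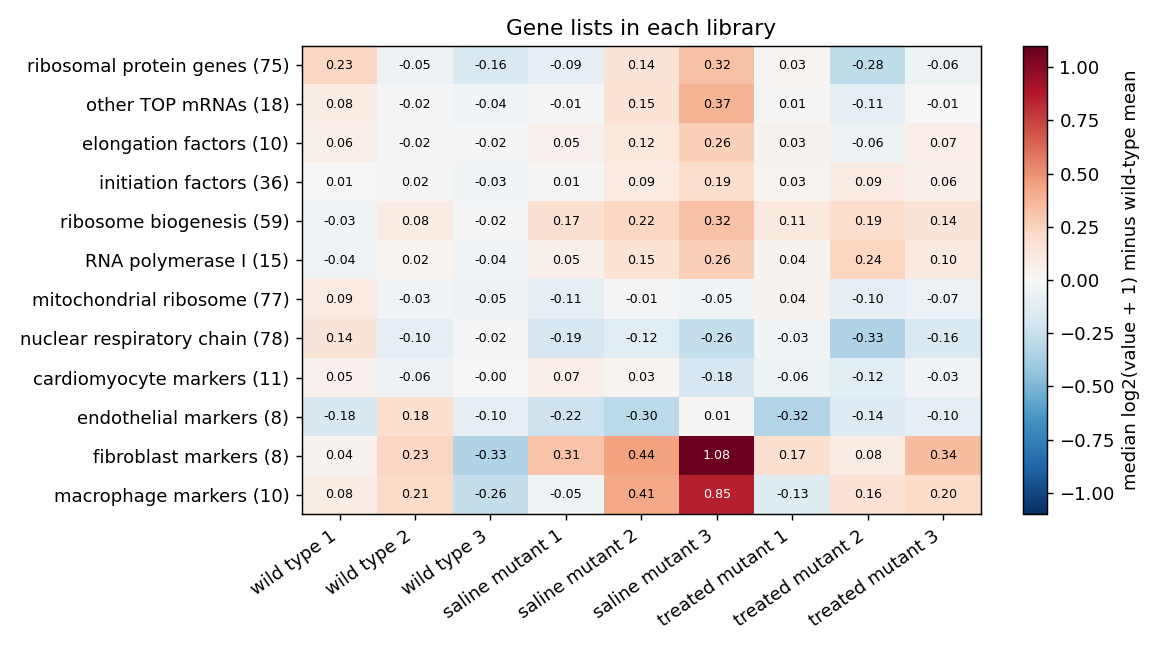
Median log2 difference from the wild-type mean for each gene list (rows, with the number of genes) in each library (columns), in red where higher and blue where lower. Saline mutant replicate 3 has the highest values of the ribosomal protein genes (0.32), other TOP mRNAs (0.37), fibroblast markers (1.08) and macrophage markers (0.85). The same library is also highest for ribosome biogenesis (0.32), RNA polymerase I (0.26), elongation factors (0.26) and initiation factors (0.19).

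Markers of other heart cells also differed between the groups. The 8 fibroblast markers summed to 1732 to 2518 in wild type, 2792 to 4716 in saline mutants, and 2057 to 2945 in treated mutants. Of the 8, 2 (Col1a1 and Col1a2) passed as higher in saline mutants than wild type. In that comparison 4.56% of all genes tested passed as higher and 3.14% as lower, which applies to the saline mutant counts below. The 10 macrophage markers summed to between 436 and 619, 489 and 941, and 516 and 610 in the same order, and 0 of 10 passed. All 7 markers of cycling cells had positive fold changes in saline mutant hearts, and 0 of 7 passed, with sums of 11 to 69 in wild type and 33 to 110 in saline mutants. All 5 erythroid markers tested had negative fold changes in saline mutants, with a median of -1.36, and 2 passed (Hba.a2 and Alas2). The 6 markers listed summed to 104 to 313 in wild type, 69 to 85 in saline mutants and 140 to 158 in treated mutants, and the median from saline to treated mutants was 0.90, with 0 of 5 passing. Among 6 mural cell markers Acta2 alone passed, with a log2 change of -1.09 in saline mutants (adjusted p = 0.00722 in limma). Of 5 atrial markers listed 2 could be read, Nppa (3.95, adjusted p = 0.0011 in limma) and Myl4 (1.19, adjusted p = 0.0125), and both rose. Myl4 was near the floor, at 1, 1 and 1 in wild type and 3, 3 and 5 in saline mutants. The 8 endothelial markers had 0 of 8 called in any comparison. The 11 cardiomyocyte markers had 0 of 11 called in any comparison in limma. In heart tissue, a change in the number of cells of a type and a change of RNA per cell cannot be told apart, and the part of these markers in the shifts of ribosomal protein genes was not tested. The medians of the 75 members and of the fibroblast markers were 0.32 and 1.08 in saline mutant replicate 3. They were 0.23 and 0.04 in wild-type replicate 1.

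In the authors' deposited table of log2 fold changes, Rpl3l stood at -1.76 in saline mutants relative to wild type, 1.01 in treated relative to saline mutants and -0.73 in treated mutants relative to wild type. The authors' deposited table gave Rpl3 values of 0.72, -0.48 and 0.26. Their selected gene lists for the 3 comparisons, of 689, 137 and 317 genes in the authors' deposited tables, held Rpl3l in all 3, Rpl3 in the first and Rps27a in the other two.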

How the data were processed

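The authors deposited, per the file headers, 3 tables that hold a whole-number value per gene and library. The values deposited by the authors are treated as a score, because no header or label names their unit; each library sums to 999152 to 999382, so they were scaled per library before deposit. Per the submitters' processing notes HISAT2, HTSeq and DESeq2 were used with mm10, and no versions or roles are given in the sources used here. The tables also hold log2 fold changes computed by the authors, which are quoted only where named as theirs.

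Values were joined by gene, with a missing gene set to 0. For each pair of groups, limma 3.58.1 in R 4.3.3 was fitted to log2(value + 1) of genes with a mean of at least 1 over the 6 libraries. Fold changes are therefore on the log2(value + 1) scale, which understates those of low genes. The residual variance was floored at that of rounding, the prior variance followed a trend on mean level, the prior degrees of freedom came from genes with a mean of at least 30, and Benjamini-Hochberg adjusted p-values under 0.05 over all genes tested counted as passing. The fit was tested on simulated data. Transcript lengths and exon overlaps came from GENCODE M21, with a length for 96.7% of genes, and start sites from RefSeq. The pair ratio was tested by exact permutation (SciPy 1.17.1), two-sided.

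The members and gene lists were chosen with earlier results of these data known. Named genes were Rpl3, Rpl3l, the paralog pairs, stalk and extra-ribosomal members, a ubiquitin-like fusion, every member that passed, and the 5 highest and 5 lowest in each comparison with a mean of at least 30. Members whose group ranges do not overlap, and genes of the other lists that passed, are named in addition. Some genes that this rule names are not reported here. Alternatives changed the filter, pseudocount, scaling, length trend, variance prior, replicate block, pooled fit and libraries included.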

Additional observations from a re-analysis of the deposited data

How the results depend on the processing

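Over the alternative fits of single named genes, direction and outcome of the test stayed the same in 579, significance was gained in 5 and lost in 15, and the sign changed in 28, all of genes near 0 that did not pass. Members called higher in saline mutants than wild type numbered 1, but 5 with the length trend removed and 0 with limma's standard variance step (no rounding floor, and a prior from all genes), and 0 to 1 with 1 heart left out (0 without wild-type replicate 3 or saline mutant replicate 2 or 3; without wild-type replicate 1 the 1 call was Rpl39 and not Rpl3). Members called lower in treated mutants than wild type numbered 1, but 0 with that variance step, 0 with the replicate block, 0 with all 9 libraries in one fit, 0 without the libraries with Xist and 0 with any 1 heart left out. The replicate block gave 1 member lower in treated than saline mutants, Rps27a (adjusted p = 0.0427), and 819, 30 and 35 genes in all, against 1050, 2 and 134. Numbers shared by hearts need not pair them: correlations of same-numbered hearts ran from -0.417 to 0.621, so the block is given here only. The Rpl3l to Rpl3 log2 ratio kept its sign throughout: with 1 heart left out it differed by -2.87 to -2.10 between saline mutants and wild type, by 1.13 to 1.89 between treated and saline mutants and by -1.11 to -0.83 between treated mutants and wild type.

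Counts over all genes depended more on the fit. Without the libraries with Xist they were 556, 2 and 9, with the standard variance step 858, 32 and 77, with the variance prior from all genes 1202, 14 and 243, and with all 9 libraries together 1079, 13 and 236. With 1 heart left out they ran from 506 to 1029, 2 to 8 and 1 to 133. Between treated and saline mutants the filter at a mean of 10 gave 6, the pseudocount of 5 gave 7, median-of-ratios scaling 10, upper-quartile scaling 5, and leaving out mitochondrially encoded genes or the length trend 3 each. Between treated mutants and wild type no filter gave 86.

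Sign changes between saline mutants and wild type were, with the length trend removed, 0.0038 for Rpl36, 0.024 for Rps27 and 0.012 for Rps13, and, without the libraries with Xist, 0.11 for Rpl36 and 0.17 for Rps27. With 1 heart left out Rpl36 ran from -0.11 to 0.11, Rps27 from -0.11 to 0.18 and Rps13 from -0.094 to 0.10. Between treated and saline mutants Rpl7a was at 0.0019 with the length trend removed, and with 1 heart left out it ran from -0.12 to 0.045, Rplp2 from -0.20 to 0.0028, Rpl30 from -0.21 to 0.0062 and Rps2 from -0.053 to 0.060. Between treated mutants and wild type Rps18 was at -0.0036 with median-of-ratios scaling, -0.039 with upper-quartile scaling and -0.019 without mitochondrially encoded genes. With 1 heart left out Rps18 ran from -0.054 to 0.14, Rps28 from -0.017 to 0.25 and Rpl38 from -0.015 to 0.29. The cause of these changes was not tested. Read depth is unknown, so counting error could not be given.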
